A study of Mus musculus with 6 samples.

Results

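The genes described here are 9 transcription factor genes that act in the step from progenitor to neuron: Neurog1, Neurog2, Neurod1, Neurod4, Insm1, Hes6, Sox3, Sox4 and Sox11. They were chosen by name, and all 9 have a row in the count tables, which list 42396 genes. The libraries came from primary cultures of mouse ventral midbrain, made from wild-type (WT) embryos at embryonic day 14 and plated at 150000 cells per well. On the day of plating all cells received a lentivirus at a multiplicity of infection of 5, and RNA was taken at 3 days in vitro from 2 to 3 wells per condition. In the 3 knockdown libraries the virus carried pll3.7-shRmstI, a hairpin against circRmst, a circular RNA of the gene Rmst. In the 3 control libraries it carried pll3.7-Scr2, a scramble hairpin. The study asked what lowering circRmst does to neuron shape, neuron migration and gene expression. The labels give neither the number of embryos in a culture nor the share of cells that took up the virus.

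Neurons arise from dividing progenitors when proneural factors, which are basic helix-loop-helix (bHLH) proteins, win over Notch signalling. A cell that raises its proneural factor also raises Notch ligands, and these make its neighbours express Hes repressors and remain progenitors. The neurogenins (Neurog1, Neurog2) act first and are shut off early, and Neurod1 and Neurod4 follow in newborn neurons. Insm1, a zinc finger protein, and Hes6, an unusual Hes protein that counters Hes1, act at the same step. Sox3 keeps progenitors undifferentiated, while the SoxC proteins Sox4 and Sox11 bring on pan-neuronal genes in postmitotic cells. In the ventral midbrain Neurog2 is needed for dopamine neurons to form.

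Promoter sequences of Neurog2, Sox4 and Sox11 are shown. Of the genes described here that could be tested, Neurog2 varied most between libraries. Sox4 and Sox11 had similar profiles. Each is the 250 bases before a transcription start, 5′ to 3′ on the gene's own strand, from RefSeq's promoters on GRCm38.p6. For Neurog2 that start lies inside the gene span given below, so its window is within the span. For Sox4 and Sox11 the window ends at the edge of the gene. Capitals mark E-boxes, the sites that bHLH proteins bind (CANNTG, which is the same pattern on both strands and takes in CAGCTG and CATATG).
Neurog2: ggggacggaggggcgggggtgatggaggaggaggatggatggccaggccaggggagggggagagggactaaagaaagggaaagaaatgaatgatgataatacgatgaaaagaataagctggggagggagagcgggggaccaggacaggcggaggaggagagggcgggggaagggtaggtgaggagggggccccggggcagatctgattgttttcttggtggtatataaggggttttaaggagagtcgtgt
Sox4: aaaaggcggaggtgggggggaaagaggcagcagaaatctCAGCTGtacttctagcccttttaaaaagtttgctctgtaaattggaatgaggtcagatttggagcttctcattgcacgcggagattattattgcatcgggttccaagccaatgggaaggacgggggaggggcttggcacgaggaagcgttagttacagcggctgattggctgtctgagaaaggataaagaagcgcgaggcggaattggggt
Sox11: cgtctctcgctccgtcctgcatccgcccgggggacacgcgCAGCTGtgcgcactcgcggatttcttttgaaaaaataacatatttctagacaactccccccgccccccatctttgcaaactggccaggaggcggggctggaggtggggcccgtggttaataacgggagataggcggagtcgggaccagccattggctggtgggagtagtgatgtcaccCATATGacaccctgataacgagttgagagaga
The windows are chr3:127632886-127633135 on the plus strand for Neurog2, chr13:28953700-28953949 on the minus strand for Sox4 and chr12:27342719-27342968 on the minus strand for Sox11. No CANNTG lies in the Neurog2 window. The Sox4 window holds 1, a CAGCTG at position -211 from the start. The Sox11 window holds 2, a CAGCTG at position -210 and a CATATG at position -32. Of 32817 promoter windows of the same length, 66.2% hold a CANNTG and 13% a CAGCTG. RefSeq windows were matched for 7 of the 9 genes. The windows of Neurog1 and both windows of Neurod4 also hold no CANNTG, that of Neurod1 holds 1, and those of Hes6 hold 3 and 1. Each Hes6 window has 1 CAGCTG among them.

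The 9 genes are compact. All 9 positions in the deposited FPKM tables were identical to the RefSeq positions on GRCm38, and 5 genes (Neurog1, Insm1, Sox3, Sox4 and Sox11) have a single exon in GENCODE M21. Neurog2 lies on chromosome 3 from 127632733 to 127635636, Neurod1 on chromosome 2 from 79452637 to 79456636, and Neurod4 on chromosome 10 from 130268152 to 130280254. Neurog1 lies on chromosome 13 from 56250478 to 56252180, and Sox4 on the same chromosome from 28948919 to 28953699. Insm1 lies on chromosome 2 from 146221997 to 146225020, Hes6 on chromosome 1 from 91411483 to 91414038, Sox3 on chromosome X from 60891366 to 60893430 and Sox11 on chromosome 12 from 27334268 to 27342718. Sox4 alone overlaps another annotated gene, the long non-coding RNA gene Gm46405. That gene was counted at 0.382 to 1.33 CPM (counts scaled to library size by the TMM method), against 566 to 791 CPM for Sox4. No source used here gives the strand setting of the counting, so reads of the overlap could belong to either gene.

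Depth ran from 27248934 to 43646521 counts per library, lowest in control replicate 3. The ribosomal RNA gene Rn28s1 took 1.01% to 4.49% of the counts. Rmst itself was at 105, 97.1 and 115 CPM in knockdown replicates 1, 2 and 3, against 115, 117 and 124 CPM in control replicates 1, 2 and 3. This count mixes the linear and circular forms and is no check of the knockdown. The labels call the cells dopamine neurons. The dopamine neuron marker Th was at 36.9 to 60.9 CPM. The GABAergic neuron marker Gad1 was at 242 to 303 CPM and the astrocyte marker Aqp4 at 82.4 to 174 CPM. The dividing cell marker Mki67 was at 61.9 to 129 CPM, so the cultures did not hold dopamine neurons alone. All 10 neuron, 10 radial glia and astrocyte and 10 dividing cell markers passed the filter on low counts, a low bar that dopamine neurons alone could meet for the neuron markers. Markers of microglia summed to 14.8 to 15.7 CPM in the knockdown and 16.5 to 18.5 CPM in the control. Those of endothelial cells summed to 16.0 to 19.1 CPM in the knockdown and 15.3 to 18.0 CPM in the control. Most of that sum was Kdr alone, at 13.8 to 17.2 CPM, while the other 4 endothelial markers each averaged under 1 CPM. Markers of fibroblasts and mural cells summed to 85.6 to 122 CPM in the knockdown and 94.5 to 103 CPM in the control. The microglial marker Aif1 and the endothelial marker Cldn5 are listed at 0 in all 6 libraries. None of the markers of these types, of neurons, of GABAergic neurons or of dopamine neurons was called between the groups in edgeR's test. In such bulk samples fewer cells of a type and less RNA per cell cannot be told apart.

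Per length, the SoxC genes were by far the most abundant of the 9 and the neurogenins the least. The scale is FPKM, the authors' fragments corrected for transcript length and library size. Sox4 averaged 89.6 ± 14.3 FPKM in the knockdown and 82.7 ± 10.4 FPKM in the control (SD, n = 3 each). Sox11 averaged 60.2 ± 8.31 FPKM in the knockdown and 57.7 ± 9.81 FPKM in the control. Together Sox4 and Sox11 made up 83.8% of the FPKM of the 9 genes. Hes6 followed at 16.0 ± 1.88 FPKM in the knockdown and 15.7 ± 1.20 FPKM in the control. Insm1 was at 5.84 ± 1.18 FPKM in the knockdown and 5.84 ± 0.599 FPKM in the control, and Sox3 at 3.55 ± 0.386 FPKM in the knockdown and 4.18 ± 0.232 FPKM in the control. Neurod1 stood at 1.99 ± 0.0984 FPKM in the knockdown and 2.13 ± 0.645 FPKM in the control. Neurog2 came after it with 0.348 ± 0.326 FPKM in the knockdown and 0.396 ± 0.335 FPKM in the control. Neurod4 and Neurog1 were close to the limit of detection, at a mean over the 6 libraries of 0.0587 and 0.0269 FPKM. From Sox4 down to Neurog2 the 6-library ranges of neighbouring genes did not overlap. The ranges of Neurog2 and Neurod4 met at 0.104 FPKM, and those of Neurod4 and Neurog1 overlapped. Within each library the order held for both pairs, in 6 of 6 libraries. For Neurod4 and Neurog1 it rests on few counts, such as 2 against 0 in knockdown replicate 2, where counting error covers the gap.

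**Figure D1:**
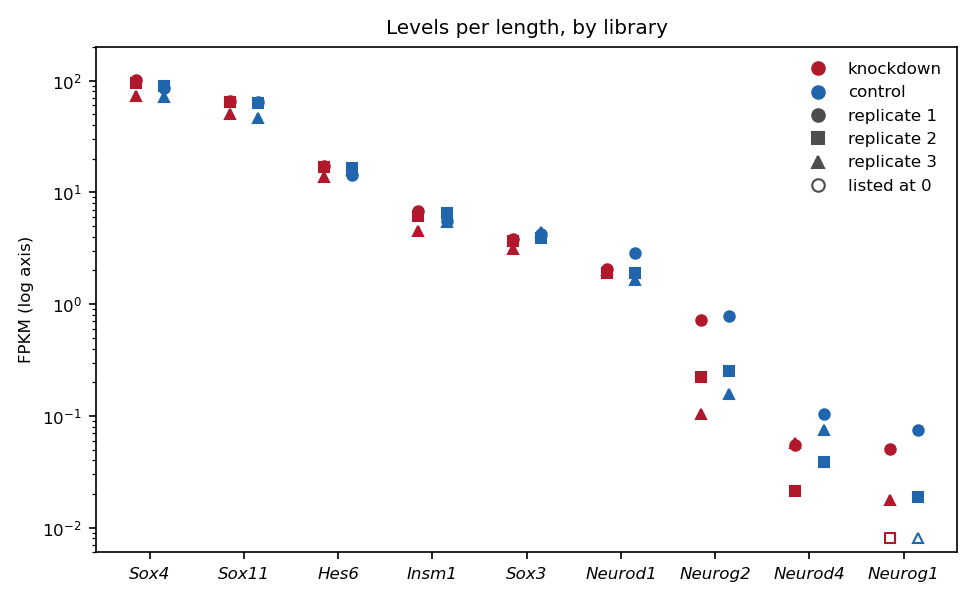
FPKM (log axis) of the 9 genes in each library, in order of mean level. Red points are knockdown and blue points control libraries, the shape gives the replicate, and open points are libraries listed at 0. Sox4 (70.9 to 100.4 FPKM) and Sox11 (46.3 to 65.4 FPKM) lie far above Neurog2 (0.104 to 0.780 FPKM).

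Neurog2, the neurogenin of the ventral midbrain, varied far more between libraries of one group than between the groups. Its counts were 109, 25 and 11 in knockdown replicates 1, 2 and 3, against 118, 33 and 11 in control replicates 1, 2 and 3. Scaled, that was 2.50, 0.725 and 0.263 CPM in the knockdown and 2.88, 0.834 and 0.396 CPM in the control. In each group replicate 1 was high and replicate 3 low, and the groups overlapped almost completely. Counting error does not cover this gap. The exact Poisson 95% interval was 89.5 to 131 counts in knockdown replicate 1 and 5.49 to 19.7 counts in knockdown replicate 3. In the control it was 97.7 to 141 counts in replicate 1 and 5.49 to 19.7 in replicate 3. These intervals cover counting error only. Replicate 1 was 9.53-fold above replicate 3 in the knockdown and 7.28-fold above it in the control.

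The group means of Neurog2 were 1.16 ± 1.18 CPM in the knockdown and 1.37 ± 1.33 CPM in the control (SD, n = 3 each). Its log2 fold change was -0.25 ± 0.76 (SE), and its 95% interval ran from -1.92 to 1.42 (edgeR's quasi-likelihood test, adjusted p = 1.00). That interval spans 0.264-fold to 2.68-fold, so the fit with the group alone does not exclude a change of either direction within that span. Single libraries set the value: it was -1.52 without knockdown replicate 1 and 0.90 without control replicate 1. It was 0.24 without knockdown replicate 3. Over the 6 libraries the SD of the Neurog2 log2 level was 1.36. Of 2465 tested genes with a mean of 0.5 to 2 CPM, 12 had a larger SD, and the median SD among them was 0.418.

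Summed levels of markers of dividing cells, radial glia and dopamine neurons are given here beside Neurog2, as a description only. Such sums weigh abundant genes most, as with the radial glia marker Vim at 473 to 590 CPM. Nes, of the same list, was highest in replicate 1 of each group, at 199 and 231 CPM in knockdown and control, but not lowest in replicate 3. The summed level of 10 dividing cell markers was 285, 247 and 261 CPM in knockdown replicates 1, 2 and 3, against 363, 249 and 314 CPM in control replicates 1, 2 and 3. It was highest in replicate 1 of each group, by a much smaller margin than Neurog2, and lowest in replicate 2. The 10 radial glia and astrocyte markers summed to 1870, 1760 and 1930 CPM in the knockdown and 1910, 1570 and 1960 CPM in the control. The 10 dopamine neuron markers summed to 519, 543 and 617 CPM in the knockdown and 541, 539 and 635 CPM in the control. Their sum was highest in replicate 3 of each group. No marker of these 3 lists is at 0 in all libraries. Other lists went with Neurog2 when averaged per gene, as log2 deviations from the 6-library mean. The 11 tested other neuronal bHLH genes averaged 0.23, -0.07 and -0.28 in the knockdown and 0.35, 0.02 and -0.25 in the control, the order of Neurog2. The 6 GABAergic neuron markers averaged lowest in replicate 3 of each group, at -0.12 and -0.13 in knockdown and control. The 3 lists above did not have the order of Neurog2 on this scale. The part of cell composition in the spread of Neurog2 was not tested.

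Neurog1, the other neurogenin, was hardly counted. It had 5, 0 and 1 counts in knockdown replicates 1, 2 and 3, against 6, 1 and 0 counts in control replicates 1, 2 and 3. Of its 13 counts in all, 11 came from the replicate 1 libraries. Taking 3 counts as the limit that a count of 0 allows, that is 0.0870 CPM in knockdown replicate 2 and 0.108 CPM in control replicate 3. Neurog1 did not pass the filter on low counts and has no test.

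Neurod4, a bHLH factor of newborn neurons, was also below the filter. It had 13, 2 and 8 counts in knockdown replicates 1, 2 and 3, against 21, 6 and 6 counts in control replicates 1, 2 and 3. Replicate 1 was again the highest of each group, and the groups overlapped. The means were 0.183 ± 0.121 CPM in the knockdown and 0.293 ± 0.192 CPM in the control (SD, n = 3 each).

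Neurod1, a bHLH factor that drives neuronal differentiation, was expressed at a modest and steadier level. It was at 8.78, 7.46 and 8.75 CPM in knockdown replicates 1, 2 and 3, against 12.2, 8.11 and 6.80 CPM in control replicates 1, 2 and 3. The knockdown libraries lay inside the wide range of the control, whose highest library was replicate 1. Its log2 fold change was -0.12 ± 0.21 (SE), with a 95% interval from 0.669-fold to 1.26-fold (edgeR, adjusted p = 1.00). It was 0.16 without control replicate 1. The ratio of Neurod1 to Neurog2 in FPKM was 2.88, 8.48 and 19.5 in knockdown replicates 1, 2 and 3, against 3.67, 7.57 and 10.3 in control replicates 1, 2 and 3. It was lowest in replicate 1 and highest in replicate 3 of each group.

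**Figure D2:**
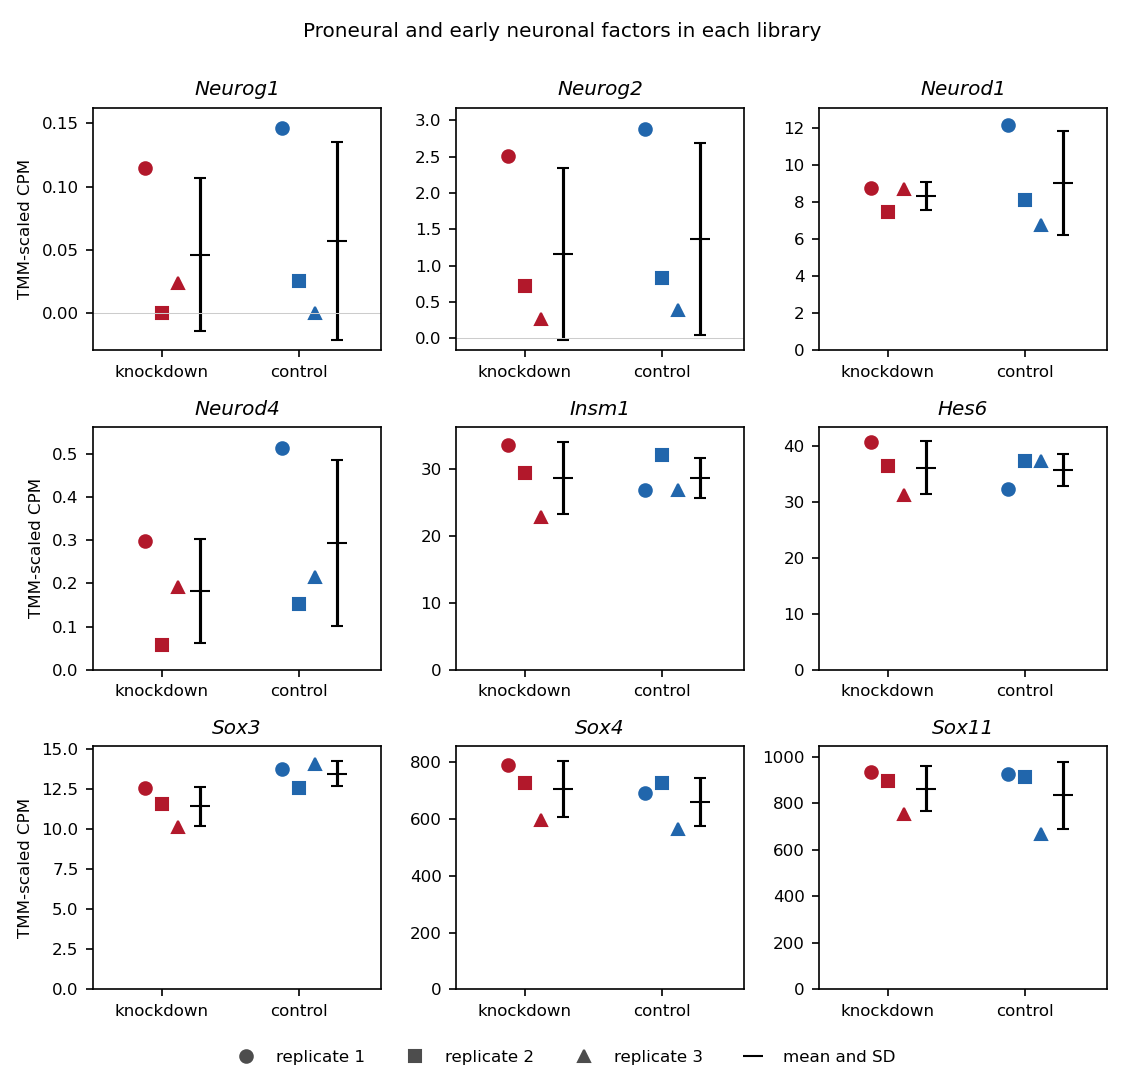
TMM-scaled CPM of each gene in the 3 knockdown libraries (red, left) and the 3 control libraries (blue, right), with shapes for replicates and black bars for the mean and SD. All 9 genes are highest in replicate 1 of the knockdown, but Neurod1 only by 8.78 against 8.75 CPM in replicate 3. Neurog1 and Neurod4 rest on 5 and 13 counts there. The share of all genes highest in that library was not counted. Neurog1, Neurog2, Neurod1, Neurod4 and Sox11 are highest in replicate 1 of both groups, at 2.50 and 2.88 CPM for Neurog2. Neurog2, Sox4 and Sox11 are lowest in replicate 3 of both groups.

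Insm1, a zinc finger factor that moves progenitors toward a neuronal or basal progenitor state, had nearly the same mean in the groups, 28.5 ± 5.37 CPM in the knockdown and 28.6 ± 2.99 CPM in the control (SD, n = 3 each). It was at 33.5, 29.3 and 22.8 CPM in knockdown replicates 1, 2 and 3, against 26.9, 32.0 and 26.9 CPM in control replicates 1, 2 and 3. The control range lay within the knockdown range. The log2 fold change was -0.0026 ± 0.15 (SE), with a 95% interval from 0.796-fold to 1.25-fold (edgeR, adjusted p = 1.00). Its sign is not fixed: it was 0.14 without knockdown replicate 3 and 0.10 without control replicate 2.

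Hes6, which promotes neuronal differentiation by countering Hes1, was similarly level. It was at 40.7, 36.4 and 31.3 CPM in knockdown replicates 1, 2 and 3, against 32.4, 37.4 and 37.3 CPM in control replicates 1, 2 and 3. Again the control range lay within the knockdown range. Its log2 fold change was 0.02 ± 0.12 (SE), with a 95% interval from 0.837-fold to 1.23-fold (edgeR, adjusted p = 1.00). It was -0.08 without knockdown replicate 1 and -0.04 without control replicate 1.

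Sox3, the SoxB1 factor of progenitors, was the one gene whose groups did not overlap, by the narrowest of margins. It was at 12.57, 11.6 and 10.2 CPM in knockdown replicates 1, 2 and 3, against 13.8, 12.58 and 14.03 CPM in control replicates 1, 2 and 3. The highest knockdown library, at 12.57 CPM, lay just under the lowest control library, at 12.58 CPM. Scaled by library totals the groups overlapped, at 12.53 CPM in that knockdown library and 12.52 CPM in that control library. The log2 fold change was -0.23 ± 0.13 (SE), with a 95% interval from 0.693-fold to 1.04-fold. It did not pass edgeR's quasi-likelihood test (unadjusted p = 0.108, adjusted p = 1.00). It ran from -0.31 to -0.15 as each library was left out. With no overlap on this scale, leaving out 1 library could hardly turn the sign, so these 6 fits add no support.

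Sox4 and Sox11, the SoxC factors of postmitotic neurons, had similar profiles across the libraries, though control replicates 1 and 2 differed in order. Sox4 was at 791, 727 and 597 CPM in knockdown replicates 1, 2 and 3, against 691, 726 and 566 CPM in control replicates 1, 2 and 3. Sox11 was at 937, 899 and 754 CPM in knockdown replicates 1, 2 and 3, against 925, 914 and 670 CPM in control replicates 1, 2 and 3. For both genes replicate 3 was the lowest library of each group, and the groups overlapped. The ratio of Sox4 to Sox11 in FPKM was 1.54, 1.47 and 1.45 in the knockdown and 1.36, 1.44 and 1.53 in the control. It fell from replicate 1 to 3 in the knockdown and rose in the control. Over the 6 libraries the SD of the log2 level was 0.185 for Sox4 and 0.2 for Sox11. The median over 14501 genes was 0.158. How steady the ratio is for other pairs of genes was not tested.

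Neither SoxC gene passed the test of the groups. The log2 fold change of Sox4 was 0.09 ± 0.13 (SE), with a 95% interval from 0.871-fold to 1.31-fold (edgeR, adjusted p = 1.00). That of Sox11 was 0.05 ± 0.14, with an interval from 0.833-fold to 1.28-fold (adjusted p = 1.00). Without control replicate 3 it was -0.08 for Sox11 and 0.0021 for Sox4. Without knockdown replicate 1 it was -0.02 for Sox11 and 0.0019 for Sox4. In the promoter windows printed above, Sox4 and Sox11 each hold a CAGCTG some way upstream of the start, a description of the letters only. Both Hes6 windows hold a CAGCTG too, as do 13% of all windows.

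**Figure D3:**
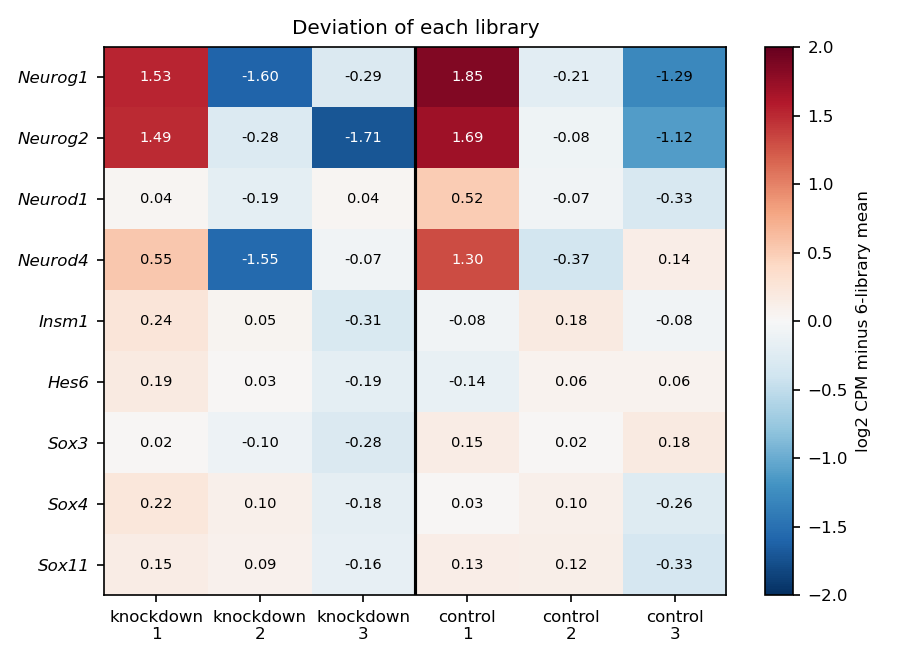
Deviation of each library from the 6-library mean of each gene, in log2 CPM (with 0.5 added to each count), with knockdown libraries on the left and control libraries on the right of the line. Neurog2 is 1.49 and 1.69 above its mean in replicate 1 and -1.71 and -1.12 from it in replicate 3 of knockdown and control, while Sox4 and Sox11 stay within -0.33 to 0.22.

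Of the 9 genes, 7 passed the filter on low counts and 0 of 7 were called by edgeR's test. The background is 0%, since 0 of all 17439 genes tested had an adjusted p under 0.05. Without adjustment, 0 of the 7 genes and 1.1% of all genes (191) had a p under 0.05. DESeq2 called 1 gene of the whole table and limma voom 0, none of them among the 9. The groups did not overlap in 1 of the 7 (Sox3), against 5.2% of all genes (907). The median log2 fold change of the 7 was -0.0026, with 3 above 0 and 4 below, against -0.00603 over all genes, of which 48.1% lay above.

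**Figure D4:**
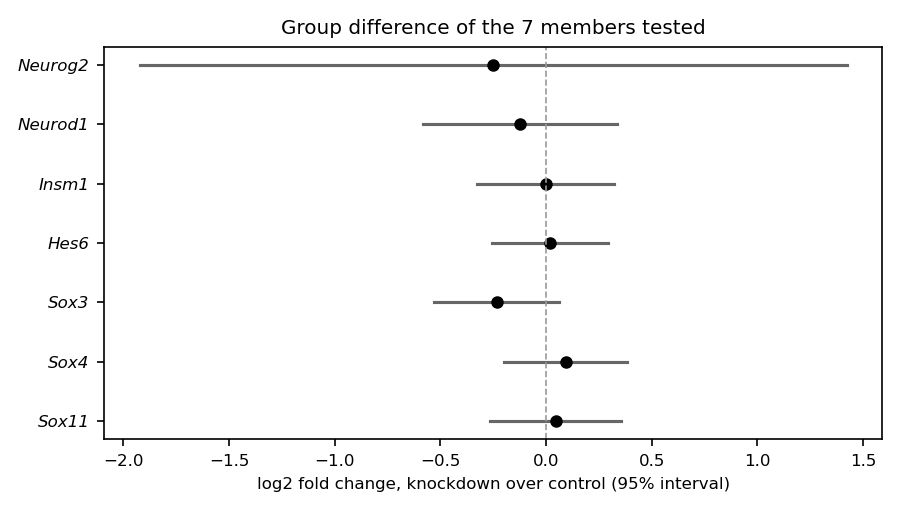
Log2 fold change, knockdown over control, of the 7 genes that passed the filter on low counts, with the 95% interval from edgeR as a line. Every interval spans 0, and that of Neurog2, from -1.92 to 1.42, is the widest.

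Of the other neuronal bHLH genes, 16 were listed, 11 tested and 0 were called, and their median log2 fold change was -0.12, with 4 above 0 and 7 below. Neurog3 and Atoh1 are listed at 0 in all 6 libraries. Olig2, a bHLH gene of oligodendrocyte and motor neuron progenitors, had the smallest p, with 35.7 ± 6.57 CPM in the knockdown and 44.9 ± 10.8 CPM in the control (SD, n = 3 each) and a log2 fold change of -0.33 ± 0.19 (SE). Markers of the oligodendrocyte lineage lay below the control in 9 of 9 genes, with 0 called. Their summed level was 299 to 384 CPM in the knockdown and 308 to 484 CPM in the control. Olig2 is itself among these 9, so its own value is part of that count and sum. The part of this lineage in the value of Olig2 was not tested.

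Of 13 partners and inhibitors of bHLH factors, 12 were tested and 0 called, and the median was 0.04, with 9 above 0 and 3 below. Id1, whose protein blocks bHLH factors by taking their partners, was at 6.01 ± 0.988 CPM in the knockdown and 4.37 ± 0.821 CPM in the control (SD, n = 3 each). Its log2 fold change was 0.47 ± 0.20 (SE, edgeR, adjusted p = 1.00), and it was the 1 gene of this list with an unadjusted p under 0.05. Id3, of the same family, had 0.17 ± 0.14. Hes5, a Notch effector that represses proneural genes, was at 26.1 ± 2.99 CPM in the knockdown and 24.7 ± 2.08 CPM in the control. Hes1, of the same kind, was at 11.2 ± 1.10 CPM in the knockdown and 11.2 ± 0.985 CPM in the control. Hes5 and Hes1 were named after their values were seen.

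Notch signals had 14 of 14 genes tested and 0 called, and a median log2 fold change of 0.08, 11 above 0 and 3 below. Notch1, the main receptor of neural progenitors, was at 184, 183 and 187 CPM in knockdown replicates 1, 2 and 3, against 161, 168 and 174 CPM in control replicates 1, 2 and 3. Every knockdown library lay above every control library, and the log2 fold change was 0.14 ± 0.09 (SE). It was the 1 gene of the 14 with no overlap, against 5.2% of all genes. Notch3 had 0.18 ± 0.11.

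The close relatives of the Sox genes described here were also tested, 5 of 5, with 0 called and a median of -0.02, 1 above 0 and 4 below. Sox12, the third SoxC gene, was at 108, 107 and 88.2 CPM in knockdown replicates 1, 2 and 3, against 123, 119 and 111 CPM in control replicates 1, 2 and 3. It was the 1 gene of the 5 whose groups did not overlap, against 5.2% of all genes, and its log2 fold change was -0.22 ± 0.11 (SE, edgeR, unadjusted p = 0.064, adjusted p = 1.00). Sox1, a SoxB1 gene beside Sox3, was at 63.2 ± 5.15 CPM in the knockdown and 66.1 ± 1.58 CPM in the control (SD, n = 3 each), with -0.06 ± 0.10. Whether Sox12 differed from Sox4 and Sox11 in its response was not tested.

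Targets and cofactors of neuronal differentiation were all tested, 27 of 27, with 0 called and a median log2 fold change of -0.03, 9 above 0 and 18 below. Insm2, the paralog of Insm1, had -0.57 ± 0.35 (SE) at 0.612 ± 0.178 CPM in the knockdown and 0.919 ± 0.111 CPM in the control (SD, n = 3 each). Myt1l, a zinc finger gene of postmitotic neurons, had -0.17 ± 0.12 at 264 ± 24.8 CPM in the knockdown and 298 ± 41.2 CPM in the control.

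**Figure D5:**
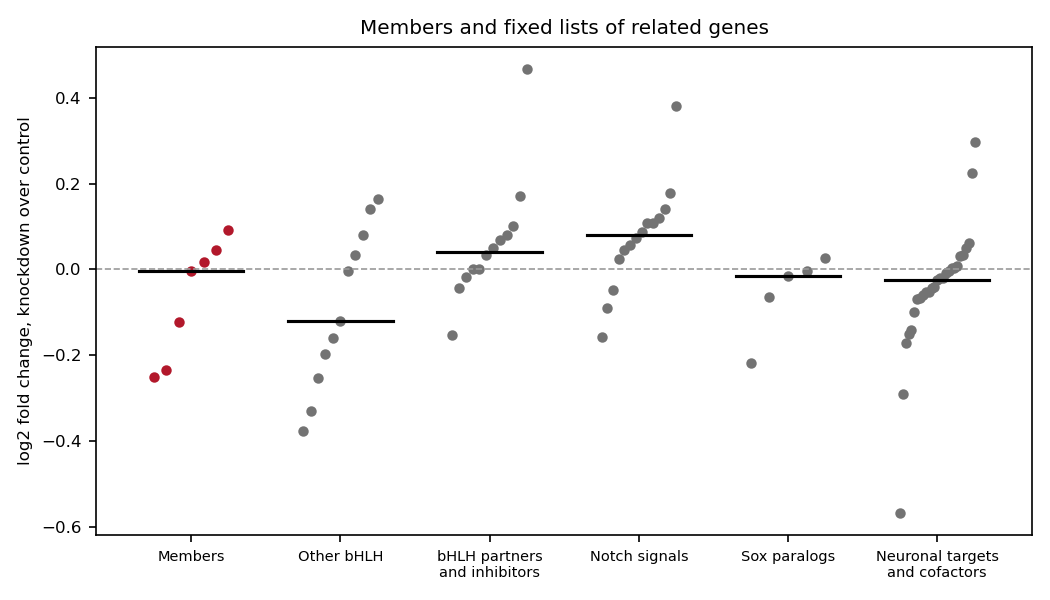
Log2 fold change, knockdown over control, of the 7 tested genes (red) and of the tested genes of 5 lists of related genes (grey), with a black line at each median. The medians run from -0.12 for the other bHLH genes to 0.08 for the Notch signals, and no gene shown was called.

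The genes whose levels moved across the 6 libraries most like the mean of the 7 genes with at least 1 CPM were sought among 14494 other genes. Likeness was the root mean square difference of the centred log2 profiles, over 6 libraries. That mean was 0.34, -0.04 and -0.40 in knockdown replicates 1, 2 and 3, and 0.33, 0.05 and -0.27 in control replicates 1, 2 and 3. Much of its size came from Neurog2, without which the mean of the other 6 genes was 0.14, -0.004 and -0.18 in the knockdown and 0.10, 0.07 and -0.12 in the control. The nearest gene was Uqcc3, which encodes an assembly factor of respiratory complex III, at a distance of 0.0692 log2 units. Tdrd1, a tudor domain gene known from germ cells, followed at 0.0798. The small nucleolar RNA host gene Snhg12 was at 0.0921, 1700048O20Rik at 0.0923 and Polr2a, the gene of the largest subunit of RNA polymerase II, at 0.0931.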

How the data were processed

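RNA depleted of ribosomal RNA was sequenced with paired reads of 150 bases, per the labels' protocols. The deposited counts are whole-number counts per gene, 1 table per library. The deposited FPKM tables follow the Cufflinks format in their headers. The submitters' processing notes name build GRCm38 with bcl2fastq 2.20 and Cufflinks 2.2.1, but the aligner and counter were not given in the sources used here.

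Counts were tested with edgeR 4.0.16 (R 4.3.3): filterByExpr (17439 genes left), TMM scaling, quasi-likelihood test with the group alone in the design, Benjamini-Hochberg adjustment over all genes, threshold 0.05. Alternatives were other scalings and filters, DESeq2 1.42.0, limma 3.58.1 on voom values and on log2 FPKM, a replicate block, and each library left out. The fits were tested on simulated data. No library was a copy of another in its group (chi-square per degree of freedom 12.8 to 91.4). The labels name 3 independent cultures without saying which libraries share one, so p-values measure the spread between these libraries.

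The genes, lists and tests were chosen with earlier results of these data known. From each list of related genes the text names up to 4 called genes or else the 2 with the smallest p, and it names the 5 genes nearest in pattern. A gene named by this rule is not reported here. Other named genes were chosen after their values were seen.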

Additional observations from a re-analysis of the deposited data

How the results depend on the processing

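Over the 7 tested genes, 0 of 67 fold changes from fits with another setting passed the threshold. The same held for 42 fold changes from fits without 1 library. These numbers count each gene in each fit. The count of genes past the threshold between the groups was 0 in edgeR, 11 without a filter on low counts (5 higher, 6 lower) and 1 with DESeq2. It was 0 with each library left out. The sign of Insm1 turned with DESeq2 size factors (0.0009), without the filter (0.0047) and with DESeq2 (0.0020), all within rounding of 0; the cause was not tested. Leaving out each library gave -1.52 to 0.90 for Neurog2, -0.27 to 0.16 for Neurod1, -0.13 to 0.14 for Insm1, -0.076 to 0.12 for Hes6, -0.31 to -0.15 for Sox3, 0.0019 to 0.21 for Sox4 and -0.082 to 0.14 for Sox11.

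With the replicate number as a block the count was 0 and the log2 fold change of Neurog2 was -0.28 ± 0.31 (SE). Deviations of same-numbered libraries correlated at 0.205, 0.214 and 0.043 across genes for numbers 1, 2 and 3, so the numbers were not taken to pair the samples. Knockdown replicate 3 correlated best with control replicate 1 (0.061). In that fit the number term itself had 27 genes past the threshold of 17439 (0.155%), Neurog2 among them (edgeR, adjusted p = 0.0278). Neurog2 missed it with limma voom (adjusted p = 0.0802), without knockdown replicate 1 (0.0644) and without control replicate 1 (0.0763). Over all alternatives its adjusted p ran from 3.6e-11 to 0.0802. The count for the number term was 741 without the filter, 225 with DESeq2, and 45 to 524 as each library was left out.

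Depth limits Neurog1 and Neurod4, with 13 and 56 counts in all.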

Other observations

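A few related genes, picked after their values were seen, also differed between libraries of a group more than between the groups. The groups failed to overlap in only 5.2% of all 17439 genes tested, so overlap is not particular to these genes. Neurod2, a bHLH gene of maturing neurons, was at 6.23, 5.51 and 3.01 CPM in knockdown replicates 1, 2 and 3, against 5.39, 5.74 and 1.91 CPM in control replicates 1, 2 and 3. It was lowest in replicate 3 of each group, as Sox4 and Sox11 were. Nhlh2, a bHLH gene of young neurons, was at 30.6, 26.8 and 22.9 CPM in the knockdown and 30.7, 26.2 and 23.6 CPM in the control, in the same order in each group. The SoxB2 gene Sox14, which marks GABAergic neurons, was highest in replicate 2 of each group, at 40.5, 56.4 and 36.5 CPM in the knockdown and 37.4, 54.0 and 39.5 CPM in the control.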
